A study of Homo sapiens with 10 samples.

Results

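The genes described are 10 regulators of TNF receptor signaling and inhibitors of apoptosis (IAPs), picked by name as a functional group: TNFAIP3, CYLD, TNIP1, TNIP2, TRAF1, TRAF2, BIRC2, BIRC3, CFLAR and TNFAIP8. The choice was made with earlier results of these data known. All 10 were found by symbol among the 57820 genes listed, and all 10 passed the filter on low counts in both comparisons. They were measured by mRNA sequencing in HCT116, an established human colorectal cancer (CRC) line, in 10 libraries of 4 groups. TEX10 knockdown cells (TEX10_sh, 3 libraries) were compared with control shRNA cells of the same experiment (shNC1, 3 libraries), and RELA knockdown cells (p65_sh, 2 libraries) with theirs (shNC2, 2 libraries). All 4 groups, controls included, carried an shRNA delivered by a lentivirus built on the pLKO.1 vector, with 24 h of infection and 3 days of puromycin selection, and no group is labelled as stimulated with TNF. Which of the study's shRNAs against TEX10 or RELA was sequenced is not given in the sources used here. The study asked which NF-κB target genes depend on TEX10, a nuclear protein, and which of these also depend on RELA, the p65 subunit of NF-κB.

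When TNF binds its receptor, the adaptor TRADD and the kinase RIPK1 gather TRAF2, which brings in the ubiquitin ligases BIRC2 (cIAP1) and BIRC3 (cIAP2). Their ubiquitin chains recruit the kinases that activate NF-κB, while TNFAIP3 (A20), its binding partners TNIP1 and TNIP2 (ABIN-1 and ABIN-2) and the deubiquitinase CYLD restrain the signal. CFLAR (c-FLIP), an inactive relative of caspase-8, blocks the death branch of the same receptor. Several of these genes, TNFAIP3, BIRC3, TRAF1 and CFLAR among them, are well-known NF-κB targets, so that the pathway feeds back on itself.

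The promoter sequences show which of these genes carry a match to the κB consensus, the DNA sequence that RELA dimers bind, close to an annotated start. RefSeq start windows of GRCh38.p14 (250 bases before to 50 after each start) were found by symbol for all 10 genes, 21 windows in all. The consensus, searched on both strands, was matched in 6 of these windows, which belong to 5 of the 10 genes. Over all RefSeq windows it was matched in 2075 of 35116 (5.909%), and 7.094% of the 27305 genes had at least 1 such window. The 10 genes had more windows per gene than genes at large, and so more room for a match. Their share by gene is therefore not directly comparable with 7.094%. In the sequences printed here the capitals mark the match, and its position is counted from 1 at the start, -1 being the base before it. Each sequence is 30 bases on the plus strand of the chromosome, except that of TNIP1, which lies on the minus strand and is printed in the direction of the gene.
TNFAIP3, chr6:137867182-137867211, match at -67 from the start: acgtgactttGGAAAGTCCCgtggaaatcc
TNFAIP3, chr6:137867194-137867223, match at -55: aaagtcccgtGGAAATCCCCgggcctacaa
CYLD, chr16:50741887-50741916, match at -189: ttgacagagcGGAAAGTCCCttcggccggc
CYLD, chr16:50742405-50742434, a second start, match at 1: cccccccaccGGGGCTTCCCcatcccccga
TNIP1, chr5:151081057-151081086, match at -42: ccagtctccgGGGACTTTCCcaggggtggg
BIRC3, chr11:102317275-102317304, match at -199: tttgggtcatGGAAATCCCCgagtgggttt
BIRC3, chr11:102317339-102317368, match at -135: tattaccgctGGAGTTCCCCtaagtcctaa
CFLAR, chr2:201118609-201118638, match at -97: cgcggggggcGGGGAATTCCgcagacagga
Both TNFAIP3 matches lie in the same start window, where the printed stretches overlap, and the second has the same letters as the first match of BIRC3. The TNIP1 and CFLAR matches belong to starts inside these genes. The outermost annotated starts lie elsewhere, at chr5:151093577 for TNIP1 and chr2:201116104 for CFLAR. The windows of TNFAIP8, TNIP2, BIRC2, TRAF1 and TRAF2 held no match to the consensus, which says only that these letters are not in these windows. A match is not evidence of binding. The sequence TGACGTCA, which CREB and ATF factors bind, was matched in windows of BIRC2 and CYLD (1.848% of all windows). The BIRC2 match is shown because BIRC2 had the largest change of the 10 genes.
BIRC2, chr11:102347196-102347225: gccgggcgcgcTGACGTCAtcgtgcgtcag

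The libraries held 28606464 to 44658105 reads. Levels are given as CPM, reads per gene scaled to the size of the library. TEX10 mRNA stood at 72.6 ± 2.61 CPM (SD, n = 3) in shNC1 cells, and TEX10_sh libraries were at 31.9 ± 0.619 CPM. RELA mRNA was at 30.7 ± 1.25 CPM (SD, n = 2) in RELA knockdown cells and at 97.2 ± 7.31 in shNC2 cells. RELA mRNA was itself lower in TEX10 knockdown cells (log2 fold change -0.23, SE 0.034, adjusted p = 2.49e-05, limma), while TEX10 after RELA knockdown was at 0.15 (SE 0.053, adjusted p = 0.0224). The 6 colon epithelial markers summed to 3008 to 3597 CPM per library, and the 8 fibroblast, endothelial and immune markers found to 43.2 to 61.0 CPM. DCN and CD3E had 0 reads in all 10 libraries. Of the 3 markers of the second list that could be tested, CD68 fell in both comparisons (log2 fold change -0.51 after TEX10 and -0.77 after RELA knockdown), while LYZ (0.48 and 0.41) and COL1A1 (-0.09 and 0.09) did not pass. Of the 6 epithelial markers, KRT8 and CDH1 rose after TEX10 knockdown, and EPCAM, CDH1 and CDX2 rose after RELA knockdown. VIL1 was called lower after RELA knockdown, but from few reads. It had 47 and 54 reads in shNC2 cells and 49 and 7 in RELA knockdown cells. Only p65_sh replicate 2 lay far below the controls, so the VIL1 call rests on that library. The part of these markers in the results was not tested. In bulk RNA, fewer cells of a type and less RNA per cell cannot be told apart. No source says whether replicates were separate cultures, so the spread behind each p-value is that among libraries and may be technical. The 2 experiments share no group, so experiment and batch cannot be told apart. Only controls of the same experiment were used for a knockdown.

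TEX10 knockdown moved these genes in both directions. TNFAIP8, TNFAIP3 and TRAF1 fell, CYLD and CFLAR rose, and the other 5 genes did not pass an adjusted p under 0.01 from limma. Of all 17257 genes tested, 40.6% passed in either direction, 19% lower and 21.6% higher, so 5 of 10 is near the background. The median log2 fold change of the 10 genes was -0.02, against 0.00 over all genes. TEX10_sh libraries lay wholly below the shNC1 libraries for 4 genes and wholly above them for 5, against 28.3% and 30.4% of all genes (58.6% together). TNFAIP8 was among the genes that the study had named as lower in these TEX10 libraries, so its direction is not independent evidence. The study's text does not name TNFAIP3 or TRAF1. Whether its heatmap of lowered NF-κB targets includes them is not known here.

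RELA knockdown lowered 6 of the 10 genes, BIRC2, BIRC3, TNFAIP8, CFLAR, TNIP1 and CYLD, and raised 0. Of all 16814 genes tested, 30.2% passed, 15.8% lower and 14.4% higher. Because the 10 genes were chosen with earlier results of these data known, their counts and shared direction are not independent evidence. All 10 log2 fold changes were below 0, with a median of -0.24 against 0.01 over all genes. The median size of the change, whatever its direction, was 0.24 for these genes and 0.18 for all genes. The count of genes raised was 0 also at an unadjusted p under 0.05, with edgeR and with DESeq2, while 8 genes were lower at that unadjusted p. The p65_sh libraries lay wholly below the shNC2 libraries for 8 genes and above them for 0, against 33.4% and 34.6% of all genes (68% together). The count of genes lowered was 4 with DESeq2, and without any 1 of 3 libraries (shNC2 replicate 1, shNC2 replicate 2 or p65_sh replicate 2) it was also 4. Only TNFAIP8 was called lower in both comparisons (8.15% of the 16573 genes tested in both), and the study had also chosen TNFAIP8 as lower in both. CFLAR and CYLD were called in opposite directions (2.75%).

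In the control cells the level per length differed widely among the genes. In units of CPM per kb of annotated exon, TNIP2 stood at 20.9 ± 0.361 and BIRC2 at 15.004 ± 0.699 in shNC1 cells (SD, n = 3). TNIP1 followed at 7.23 ± 0.0610 and TRAF2 at 6.21 ± 0.414, so that A20's partners and the adaptor were far above A20 itself. TNFAIP8 came next at 2.06 ± 0.165, and the remaining genes were at 1.21 (TNFAIP3) to 1.63 (CFLAR). Among these, CFLAR, CYLD and BIRC3 overlapped in their libraries, as did BIRC3 and TRAF1, and their order is not set by these data. In shNC2 cells the first 5 genes stood in the same order, with TNIP2 at 19.2 ± 0.335 and BIRC2 at 16.2 ± 0.0874 (SD, n = 2). There BIRC3 and CYLD overlapped, as did TNFAIP3 and TRAF1, which were the lowest at 1.09 ± 0.211 and 0.961 ± 0.0463. The exon lengths join all annotated isoforms of GENCODE, 22.5 kb for CFLAR and 2.69 kb for TNIP2, so that genes with many isoforms are set low on this scale.

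**Figure D1:**
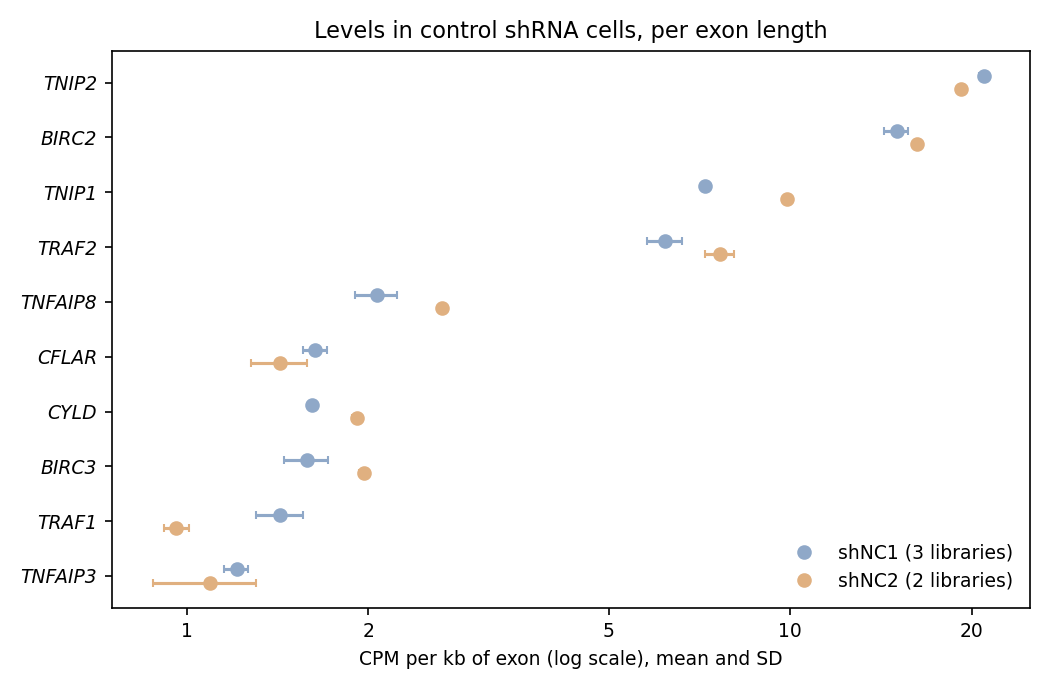
Level of each gene in the control groups in CPM per kb of exon (log axis; points are means, bars the SD over 3 shNC1 and 2 shNC2 libraries). TNIP2 and BIRC2 stand highest at 15.004 to 20.9, and TRAF1 and TNFAIP3 lowest at 0.961 to 1.43.

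Among the brakes on the pathway, A20 and CYLD went opposite ways in TEX10 knockdown cells. TNFAIP3 (ENSG00000118503, chr6:137867188-137883312 in GRCh38) encodes A20, a ubiquitin-editing enzyme that ends TNF signaling and whose κB matches are printed above. It was at 5.95, 6.43 and 5.95 CPM in shNC1 cells and at 4.11, 4.46 and 4.11 CPM in TEX10 knockdown cells. The 2 groups did not overlap, and the log2 fold change was -0.48 (SE 0.087, adjusted p = 0.000201, limma). In the RELA experiment TNFAIP3 was at 4.76 and 6.27 CPM in shNC2 cells and at 4.28 and 4.03 CPM in RELA knockdown cells. The controls were further apart than the lower control was from the knockdown libraries, and the log2 fold change of -0.36 (SE 0.14, adjusted p = 0.0296) did not pass. Without shNC2 replicate 1, the lower control, it was -0.54 with an adjusted p of 0.00566, and over all alternatives the adjusted p ran from 0.00566 to 0.475. With 115 to 261 reads per library, TNFAIP3 was the least deeply covered of the 10 genes.

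CYLD (ENSG00000083799, chr16:50742050-50801935) removes linear and other non-degradative ubiquitin chains from the receptor complex. It was at 20.7, 20.9 and 21.1 CPM in shNC1 cells and at 28.9, 28.6 and 27.1 CPM in TEX10 knockdown cells. Every knockdown library lay above every control library, and CYLD rose by 0.42 on the log2 scale (SE 0.047, adjusted p = 1.27e-06, limma). In the RELA experiment it was at 24.5 and 25.2 CPM in shNC2 cells and at 21.2 and 20.8 CPM in RELA knockdown cells. Here both knockdown libraries were the lower, and CYLD fell by 0.24 on the log2 scale (SE 0.074, adjusted p = 0.00844, limma). That call lies near the threshold: it was lost in 7 of 13 alternatives, among them leaving out any 1 of the 4 libraries, with adjusted p from 0.00237 to 0.0880 and log2 fold changes from -0.25 to -0.22.

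Of the A20-binding proteins, TNIP1 fell after RELA knockdown, and TNIP2 passed in neither comparison. TNIP1 (ENSG00000145901, chr5:151029945-151093577, minus strand) was at 42.1, 42.1 and 41.5 CPM in shNC1 cells and at 44.7, 44.8 and 43.9 CPM in TEX10 knockdown cells. The groups did not overlap, but the log2 fold change was only 0.085 (SE 0.037, adjusted p = 0.0627). TNIP1 was at 57.5 and 57.1 CPM in shNC2 cells and at 47.6 and 49.5 CPM in RELA knockdown cells. It fell there by 0.24 on the log2 scale (SE 0.057, adjusted p = 0.000582, limma), a call that was lost without shNC2 replicate 1 (adjusted p = 0.0156) or without shNC2 replicate 2 (adjusted p = 0.0121), in a range from 2.17e-05 to 0.0156.

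TNIP2 (ENSG00000168884, chr4:2741648-2756376, minus strand), whose product also takes part in the TPL2 kinase complex, was at 55.2, 57.2 and 56.1 CPM in shNC1 cells and at 58.1, 57.9 and 61.1 CPM in TEX10 knockdown cells. It was at 51.0 and 52.2 CPM in shNC2 cells and at 46.3 and 45.5 CPM in RELA knockdown cells. In neither experiment did the groups overlap. The changes were small and did not pass, with log2 fold changes of 0.070 (SE 0.036, adjusted p = 0.114) after TEX10 and -0.17 (SE 0.058, adjusted p = 0.0179) after RELA knockdown.

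Of the adaptors, TRAF1 fell after TEX10 knockdown and TRAF2 passed in neither comparison. TRAF1 (ENSG00000056558, chr9:120902393-120929173, minus strand) lacks the RING domain of its relatives and pairs with TRAF2. It was at 9.46, 9.88 and 8.31 CPM in shNC1 cells and at 7.66, 6.34 and 6.65 CPM in TEX10 knockdown cells. The groups did not overlap, and TRAF1 fell by 0.40 on the log2 scale (SE 0.088, adjusted p = 0.00117, limma). In the RELA experiment TRAF1 was at 6.41 and 5.99 CPM in shNC2 cells and at 6.46 and 5.36 CPM in RELA knockdown cells, 1 knockdown library lying above both controls. The log2 fold change was -0.069 (SE 0.12, adjusted p = 0.698), with a 95% confidence interval of -0.32 to 0.18. This interval still includes a fall of the size measured for TNIP1, CYLD or CFLAR, so whether TRAF1 fell by that much is not settled here.

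TRAF2 (ENSG00000127191, chr9:136881912-136926607), the scaffold that holds the cIAPs at the receptor, was at 23.3, 23.9 and 21.0 CPM in shNC1 cells and at 20.6, 19.3 and 22.9 CPM in TEX10 knockdown cells. It was at 26.9 and 29.1 CPM in shNC2 cells and at 23.4 and 27.3 CPM in RELA knockdown cells. Control and knockdown libraries overlapped in both experiments. The log2 fold changes were -0.12 (SE 0.065, adjusted p = 0.141) and -0.15 (SE 0.074, adjusted p = 0.109), with 95% confidence intervals of -0.26 to 0.02 and -0.29 to 0.00.

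The cIAP genes fell after RELA knockdown, and BIRC2 had the largest change of any of the 10 genes. BIRC3 and BIRC2 are neighbours on the plus strand of chromosome 11, with 7807 bases between the end of BIRC3 (ENSG00000023445, chr11:102317450-102339403) and the start of BIRC2 (ENSG00000110330, chr11:102347211-102378670). Their transcripts share 11 of the 4905 distinct 50-base words of BIRC2, so few reads could be assigned to the wrong neighbour. BIRC2 was at 73.2 and 73.8 CPM in shNC2 cells and at 44.4 and 42.0 CPM in RELA knockdown cells. The libraries of each group were close together and far from the other group, and BIRC2 fell by 0.76 on the log2 scale (SE 0.056, adjusted p = 1.88e-17, limma), that is, by 41.0%. In TEX10 knockdown cells BIRC2 was at 73.0, 74.3 and 71.9 CPM, against 65.9, 66.5 and 71.6 CPM in shNC1 cells. The knockdown libraries lay just above the controls, and the log2 fold change of 0.10 did not pass (SE 0.037, adjusted p = 0.0279).

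BIRC3, the cIAP gene known as an NF-κB target and the one with κB matches in its window, was at 14.6 and 14.95 CPM in shNC2 cells and at 10.2 and 8.79 CPM in RELA knockdown cells. It fell by 0.62 on the log2 scale (SE 0.097, adjusted p = 3.99e-07, limma), and did so in every alternative, so that its level fell by 34.9%. In shNC1 cells BIRC3 was at 11.1, 11.6 and 13.02 CPM and in TEX10 knockdown cells at 10.01, 10.1 and 10.3 CPM. All 3 knockdown libraries lay below the controls, but the log2 fold change of -0.22 (SE 0.071, adjusted p = 0.0169) did not pass. The adjusted p ran from 0.00914 to 0.1002 over the alternatives.

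CFLAR (ENSG00000003402, chr2:201116104-201176687) had the smallest adjusted p of the 10 genes after TEX10 knockdown, and rose. Its product c-FLIP holds caspase-8 in check at death receptors. CFLAR was at 35.6, 36.1 and 38.7 CPM in shNC1 cells and at 49.2, 53.8 and 50.8 CPM in TEX10 knockdown cells. The lowest knockdown library was well above the highest control, and the log2 fold change was 0.47 (SE 0.045, adjusted p = 1.97e-07, limma), a rise of 39.0%. In the RELA experiment CFLAR was at 34.6 and 29.7 CPM in shNC2 cells and at 28.5 and 25.5 CPM in RELA knockdown cells. The groups did not overlap, but the lower control was near the higher knockdown library, and the log2 fold change was -0.25 (SE 0.072, adjusted p = 0.00456, limma). This call was lost without shNC2 replicate 1 (log2 fold change -0.14, adjusted p = 0.269) and without p65_sh replicate 2 (adjusted p = 0.0984), in a range from 0.000380 to 0.269.

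The kit used does not mark strand, so reads of an overlapping gene on the other strand cannot be told apart from those of CFLAR, CYLD or TNFAIP3. The exons that CFLAR shares with the antisense gene CFLAR-AS1 and the pseudogene IMPDH1P10 span 777 and 1488 bases, and those genes were listed at means of 0.187 and 0.282 CPM. The overlaps of CYLD (56 and 27 bases) and TNFAIP3 (95 bases) were shorter, and the genes there were at or under 0.157 CPM. On its own strand CFLAR also shares 445 bases with AC007283.1, which was listed at 0 CPM. Reads in shared stretches may have been counted for either gene, so these means do not measure how many were misassigned.

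TNFAIP8 (ENSG00000145779, chr5:119268692-119399688), a TNF-induced gene that gives its name to a small family of lipid-binding regulators of cell death, was lower in both knockdowns. It was at 19.4, 18.5 and 21.5 CPM in shNC1 cells and at 14.8, 15.1 and 13.5 CPM in TEX10 knockdown cells. It was at 25.1 and 25.6 CPM in shNC2 cells and at 18.8 and 19.0 CPM in RELA knockdown cells. In each experiment every knockdown library lay below every control. The log2 fold changes were -0.44 (SE 0.066, adjusted p = 3.23e-05, limma) after TEX10 and -0.42 (SE 0.075, adjusted p = 7.43e-06, limma) after RELA knockdown, and both calls held in every alternative. TNFAIP8L1, the relative of TNFAIP8 with the most reads, fell as well, with log2 fold changes of -0.30 and -0.42 (adjusted p = 0.000110 and 6.65e-08, limma).

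The difference between the effects of the knockdowns (TEX10 minus RELA, each against its own controls) was tested for all 10 genes in a fit of all 10 libraries. It passed for 5 genes, all with the TEX10 effect the higher, against 20% of the 17922 genes tested in either direction, 11.5% in this one and 8.49% in the other. BIRC2 differed most, by 0.86 on the log2 scale (SE 0.062, adjusted p = 1.82e-09, limma). CFLAR differed by 0.72 (SE 0.090, adjusted p = 4.29e-06, limma) and CYLD by 0.66 (SE 0.075, adjusted p = 1.41e-06, limma). CFLAR and CYLD had risen in TEX10 knockdown cells and fallen in RELA knockdown cells. TNIP1 differed by 0.32 (SE 0.059, adjusted p = 0.000276, limma) and TNIP2 by 0.24 (SE 0.059, adjusted p = 0.00418, limma), although neither had passed after TEX10 knockdown. The TNIP2 difference was lost in 5 of 19 alternatives, among them without shNC1 replicate 1, TEX10_sh replicate 3, shNC2 replicate 2 or p65_sh replicate 2, with adjusted p from 0.00323 to 0.0233.

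For the other 5 genes the difference did not pass. For TNFAIP8 it was -0.02 (SE 0.098), with a 95% confidence interval of -0.22 to 0.18. For TNFAIP3 the interval was -0.46 to 0.21 and for TRAF2 -0.20 to 0.25. BIRC3 was at 0.40 (SE 0.12, adjusted p = 0.0125, limma), its interval of 0.16 to 0.64 lying above 0, and passed without shNC1 replicate 3 (adjusted p = 0.00422) or without p65_sh replicate 1 (0.00610), in a range up to 0.0858. TRAF1 was at -0.33 (SE 0.15, adjusted p = 0.106, limma), with an interval of -0.64 to -0.02. TRAF1, called after TEX10 and not after RELA knockdown, was therefore not shown to differ between them.

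**Figure D2:**
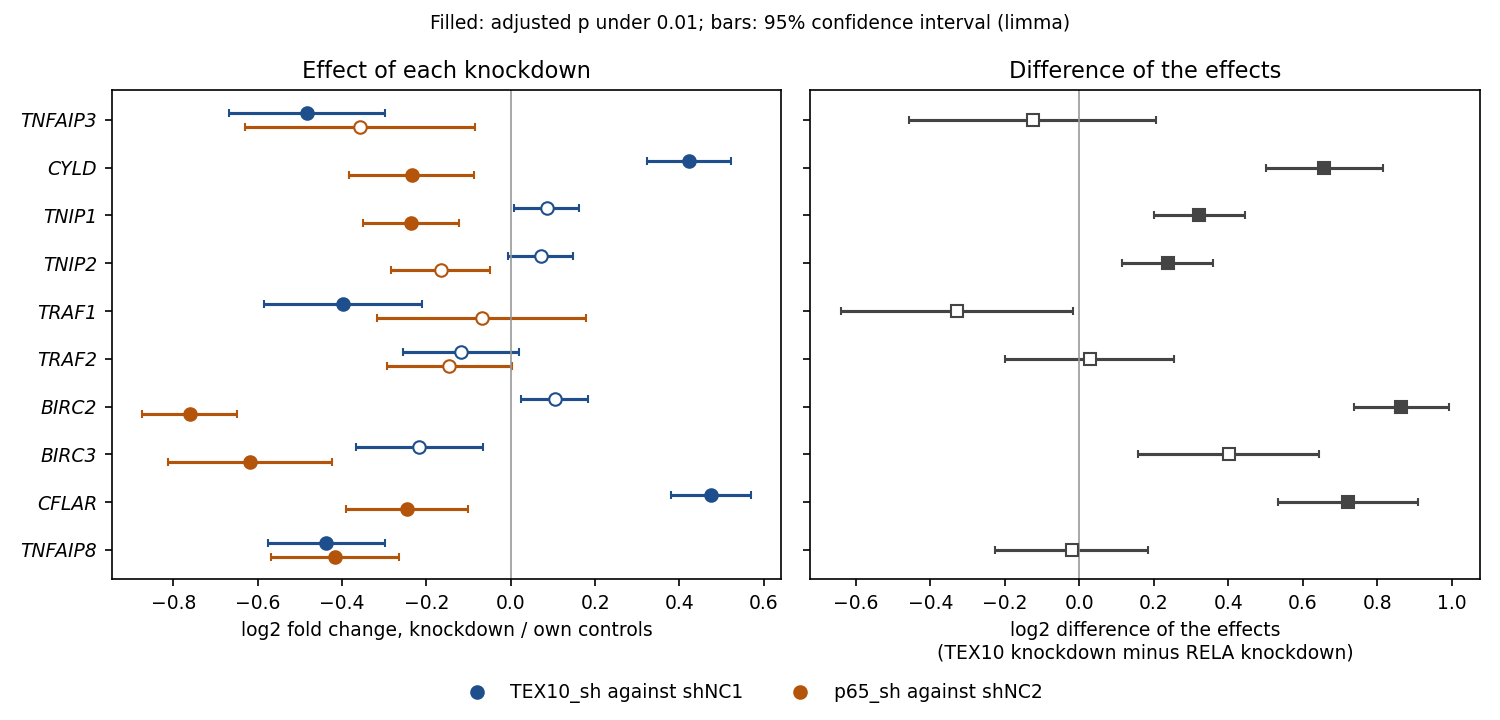
Left, log2 fold change of each gene in TEX10 knockdown (blue) and RELA knockdown (orange) against its own controls. Right, the difference of these effects; points are limma estimates, bars 95% confidence intervals and filled symbols an adjusted p under 0.01, and BIRC2, CFLAR and CYLD stand farthest to the right at 0.66 to 0.86.

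Around these genes, 57 other genes of TNF receptor signaling were listed by role. After TEX10 knockdown 49 could be tested, of which 10 fell, 18 rose and 21 did not pass, that is, 57.1% were called, against 40.6% of all genes (19% lower, 21.6% higher). Without shNC1 replicate 1, 6 fell. After RELA knockdown 51 could be tested, of which 4 fell, 12 rose and 35 did not pass, so that 31.4% were called, near the 30.2% of all genes (15.8% lower, 14.4% higher). The number that fell was 2 with DESeq2 or with no filter and 10 with the replicate block. Their median log2 fold changes were 0.07 and 0.09, near those of all genes. Of the 49 listed genes tested in both comparisons, 8 were called higher in both, 2 were called lower in both and 0 were called in opposite directions. Over all genes tested in both, 7.63% were called higher in both, 8.15% lower in both and 2.75% in opposite directions.

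Of the caspase-8 and necroptosis effectors, 2 of 3 tested rose in each experiment. CASP8, the initiator caspase that CFLAR restrains, rose from 28.8 ± 0.295 to 41.2 ± 0.867 CPM after TEX10 knockdown (SD, n = 3; log2 fold change 0.51, adjusted p = 2.77e-08, limma). After RELA knockdown it rose from 24.4 ± 0.539 to 37.9 ± 1.24 CPM (SD, n = 2; 0.62, adjusted p = 1.95e-11, limma). MLKL, the executor of necroptosis, was the other gene of this role that rose, by 0.52 and 0.50, and is named after its values were seen. CASP10 did not pass in either comparison, with log2 fold changes of -0.06 and 0.09.

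Of the receptors, TNFRSF21, a death receptor, rose by 0.34 after TEX10 knockdown (SE 0.029, adjusted p = 7.89e-08, limma) and by 0.54 after RELA knockdown (SE 0.050, adjusted p = 7.12e-14, limma). TNFRSF1A, the main TNF receptor, is named after its values were seen as the other gene besides TNFAIP8L1 that fell in both, with log2 fold changes of -0.22 and -0.25. Of the 6 receptors, 3 fell and 2 rose after TEX10 knockdown, and 1 fell and 1 rose after RELA knockdown.

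Among adaptors and death domain proteins 1 of 11 fell and 5 rose after TEX10 knockdown, and 1 fell and 4 rose after RELA knockdown. TRAF4, a relative of TRAF2, rose from 75.1 ± 0.854 to 125 ± 4.26 CPM after TEX10 knockdown (SD, n = 3; log2 fold change 0.73, adjusted p = 3.63e-11, limma), and also after RELA knockdown (0.25, adjusted p = 0.000118, limma). TANK, which binds TRAF proteins and TBK1, rose by 0.30 in both (adjusted p = 1.22e-06 after TEX10 and 1.77e-05 after RELA knockdown, limma). Of the 10 kinases of the TAK1 and IKK complexes, 1 fell and 4 rose after TEX10 knockdown, and 0 fell and 2 rose after RELA knockdown.

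Of the linear ubiquitin machinery, whose chains A20 and CYLD bind or cut, 1 of 5 genes fell and 2 rose after TEX10 knockdown. After RELA knockdown 0 fell and 2 rose. SPATA2, which ties CYLD to the ligase, rose in both, by 0.26 after TEX10 (adjusted p = 0.00201, limma) and by 0.45 after RELA knockdown (SE 0.085, adjusted p = 1.34e-05, limma). SHARPIN, a ligase subunit, rose by 0.37 after RELA knockdown (SE 0.069, adjusted p = 1.34e-05, limma) and was at -0.05 after TEX10 knockdown (adjusted p = 0.374). A20 partners and related deubiquitinases gave 1 fall and 1 rise of 4 tested after TEX10 knockdown and 0 of either after RELA knockdown.

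Outside the cIAP pair, XIAP and BIRC5 fell after TEX10 knockdown, where neither BIRC2 nor BIRC3 passed. XIAP, the direct caspase inhibitor, fell by 0.33 after TEX10 knockdown (SE 0.034, adjusted p = 5.95e-07, limma) and was at 0.10 (adjusted p = 0.131) after RELA knockdown, and the difference of -0.43 passed (SE 0.055, adjusted p = 4.82e-06, limma). BIRC5 (survivin), which acts in mitosis, fell by 0.36 (SE 0.039, adjusted p = 9.24e-07, limma) and was at -0.10 (adjusted p = 0.0784), with a difference of -0.26 (adjusted p = 0.00221, limma). Of the 7 other IAPs and IAP antagonists 2 fell and 2 rose after TEX10 knockdown, and 1 fell and 1 rose after RELA knockdown. Those that fell after RELA knockdown over the whole list were TNFRSF1A, TRAF7, HTRA2 and TNFAIP8L1, named after their values were seen.

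**Figure D3:**
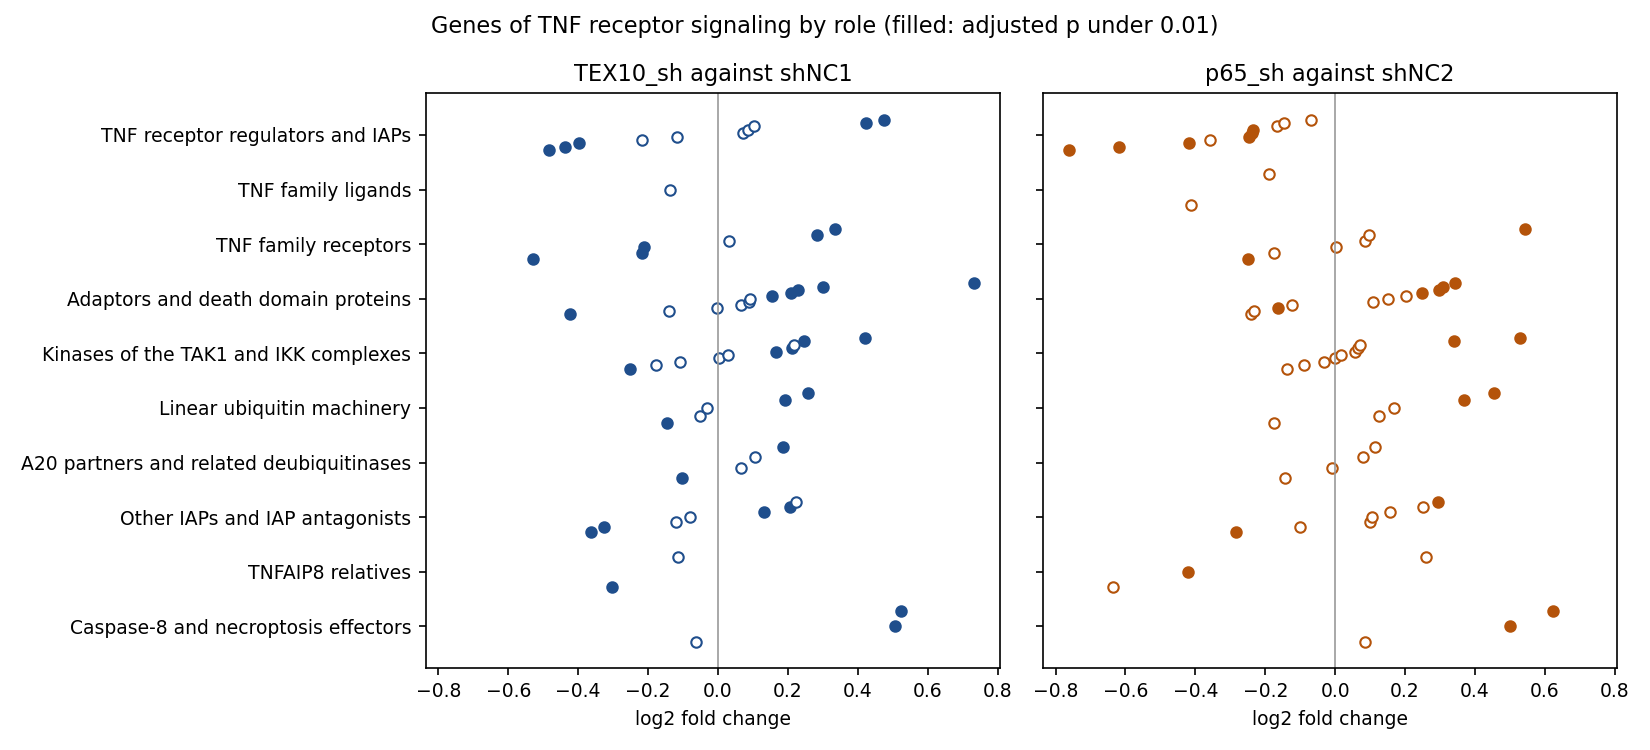
Log2 fold change of each tested gene by role, after TEX10 knockdown (left) and RELA knockdown (right), with filled points for an adjusted p under 0.01 from limma. After RELA knockdown the 10 regulators and IAPs (top row) all lie below 0, while 12 of the 51 other genes tested are filled to the right and 4 to the left.

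The genes whose pattern was most like that of 2 of the members were also looked up, over the 10 libraries with each value taken relative to its own controls, among the 11340 genes whose mean was 5 CPM or more in every group. For CFLAR they were UNC13B (Pearson r = 0.989), INPP1 (0.988) and ESYT2 (0.986). INPP1 had log2 fold changes of 0.56 after TEX10 and -0.22 after RELA knockdown, beside 0.47 and -0.25 for CFLAR, while UNC13B (0.27 and -0.15) and ESYT2 (0.15 and -0.11) had smaller ones. For BIRC2 they were AP3S1 (0.997), AHNAK (0.996) and USP3 (0.994). After RELA knockdown USP3 had a log2 fold change of -0.52, AP3S1 of -0.34 and AHNAK of -0.32, beside -0.76 for BIRC2. The points share libraries and groups, and these values describe likeness only.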

How the data were processed

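HCT116 cells carrying shRNAs against TEX10 or RELA, or control shRNAs, gave 10 libraries of mRNA sequencing. The authors deposited CPM values per gene and library; the submitters' processing notes name STAR 2.4.2a, RSEM 1.2.29, edgeR 3.8.5 and genome build hg19. The values are scaled per library by a factor that came to 0.989 to 1.02. Reads were recovered by setting the lowest nonzero value in a library to 1 read. Nonzero values then came out whole, with a tolerance of 0.01, in 100% of cases. Where a gene had 0 reads, 3 reads (0.0678 to 0.105 CPM) was the limit, which covers counting error only.

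Changes were fitted on log2(CPM + 0.5), a scale that understates those of low genes, by limma 3.58.1 with a mean-variance trend (R 4.3.3), over all genes that passed edgeR's filterByExpr (minimum count 10, total 15) on the recovered reads. A call was an adjusted p (Benjamini-Hochberg, over all genes tested) under 0.01. Every p-value is two-sided and from limma unless another tool is named. Each comparison used its own 2 groups, and the difference of the effects all 10 libraries. The fit was tested on simulated data with known changes for both experiments. For the TEX10 experiment 51.0% of 1.2-fold and 79.2% of 1.5-fold changes were called. For the RELA experiment these were 44% and 68%, so small changes can be missed. The 1.2-fold share rests on 49 genes of 17024 for the TEX10 experiment and on 50 of 16551 for the RELA experiment. In the measured data far more genes were called, 7004 of 17257 and 5083 of 16814. Whether these shares hold for the measured data was not tested.

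The members and gene lists were chosen with earlier results of these data known. Genes named were the 10 members, TEX10 and RELA, per comparison the 6 called genes of the pathway list with the smallest adjusted p, and the 3 genes most like the member with the smallest adjusted p; others are said to be named after their values were seen. PECAM1 was not analysed here. Positions and exon lengths are from GENCODE v29 (GRCh38), matched by Ensembl ID, and promoter windows from RefSeq (GRCh38.p14), matched by symbol, while the deposited values rest on hg19. Alternatives were edgeR 4.0.16 and DESeq2 1.42.0 on the recovered reads, pseudocounts of 0.1 and 1, no filter, library totals, RLE size factors, an adjusted p under 0.05, the replicate number as a block, and leaving out each library.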

Additional observations from a re-analysis of the deposited data

Results flagged for a closer look

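The effects of the knockdowns, each against its own controls, differed by a test of the difference itself for 5 of the 10 genes (limma, adjusted p under 0.01, all 10 libraries). Of all 17922 genes tested, 20% differed in either direction and 11.5% with the TEX10 effect the higher. TEX10 minus RELA, the log2 difference was 0.86 for BIRC2, 0.72 for CFLAR, 0.66 for CYLD, 0.32 for TNIP1 and 0.24 for TNIP2. CFLAR and CYLD were called higher after TEX10 knockdown and lower after RELA knockdown, and BIRC2 and TNIP1 were called after RELA knockdown only. TNIP2 was called in neither comparison alone. Experiment and batch cannot be told apart, and the groups of the RELA experiment hold 2 libraries each.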

How the results depend on the processing

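The calls of TNFAIP8, TNFAIP3, CYLD and CFLAR after TEX10 knockdown, of TNFAIP8, BIRC2 and BIRC3 after RELA knockdown, and the differences of BIRC2, CFLAR, CYLD and TNIP1 kept their direction and passed in every alternative. The call of TRAF1 after TEX10 knockdown was lost with no filter only (adjusted p = 0.0101, range 0.000296 to 0.0101). With all settings the members lowered were 2 to 4 after TEX10 and 4 to 8 after RELA knockdown, and those raised 2 to 3 and 0. CFLAR and CYLD after RELA knockdown were also lost with DESeq2 (adjusted p = 0.0603 and 0.0758) and with no filter (0.0602 and 0.0232), and CYLD with library totals (0.0106). Of the pathway list, the genes lowered after TEX10 knockdown were 6 to 8 with 1 library left out, against 10, and 6 without shNC1 replicate 1. Those lowered after RELA knockdown were 2 with DESeq2, 2 with no filter, 11 at an adjusted p under 0.05 and 10 with the replicate block, against 4.

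Replicate numbers are shared between groups, but in the TEX10 experiment same-numbered libraries did not deviate together (r from -0.02 to 0.04). In the RELA experiment each group holds 2 libraries, taken relative to their own mean. All pairs there must then give the same r apart from its sign (0.027 or -0.027), so pairing could not be judged. With the replicate block 3144 genes were called lower and 2964 higher after RELA knockdown, against 2655 and 2428, and 3140 and 3590 after TEX10 knockdown, against 3272 and 3732. Over all genes DESeq2 called 1775 lower and 1406 higher after RELA knockdown, and 1727 and 1396 were called with no filter; with no filter the differences called lower were 959, against 1522. The reversals were all in values that had not passed. TRAF1 after RELA knockdown ranged from -0.19 to 0.055 with 1 library left out, the difference of TNFAIP8 from -0.068 to 0.041, that of TNFAIP3 from -0.31 to 0.056 and that of TRAF2 from -0.080 to 0.14. The sign changed for TRAF1 without p65_sh replicate 2, for TNFAIP8 without shNC1 replicate 3 or TEX10_sh replicate 3, for TNFAIP3 without shNC2 replicate 1, and for TRAF2 without shNC1 replicate 3, TEX10_sh replicate 3, shNC2 replicate 2 or p65_sh replicate 1. With library totals the difference of TRAF2 was -0.0075. The causes were not tested. Depth was least for TNFAIP3, with 115 to 261 reads per library over all 10 libraries.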

Other observations

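Of the 6 TNF family ligands listed, all but TNFSF12 had few reads. TNF had 0 reads in all 6 libraries of the TEX10 experiment, which allows up to 0.0678 to 0.105 CPM in a library, and at most 1 read in each library of the RELA experiment. LTB, which signals through LTBR, had 22, 9 and 10 reads in shNC1 cells and 1, 3 and 5 in TEX10 knockdown cells, and 7 and 10 reads in shNC2 cells and 6 and 2 in RELA knockdown cells. LTA had 5, 7 and 10 reads in shNC1 cells and 2, 3 and 1 in TEX10 knockdown cells, and 6 and 11 reads in shNC2 cells and 4 and 2 in RELA knockdown cells. Both ligands lay lower in the knockdown libraries in each experiment, and neither passed the filter for a test there. Of all genes that could be tested, 28.3% lay wholly below their controls after TEX10 and 33.4% after RELA knockdown. TNFSF13B also lay lower in each. It could not be tested after TEX10 knockdown and did not pass after RELA knockdown (log2 fold change -0.41, adjusted p = 0.191, limma). TNFSF12 was the best covered ligand, at 14.7 ± 0.678 CPM in shNC1 and 13.4 ± 0.360 CPM in TEX10 knockdown cells (SD, n = 3), and did not pass (adjusted p = 0.0685, limma). Nor did it pass after RELA knockdown (log2 fold change -0.19, adjusted p = 0.119, limma). In each experiment its knockdown libraries also lay wholly below the controls. CD40LG and RIPK3 each had 1 read in 1 library and 0 in the rest.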
